A study of Mus musculus with 22 samples.

Results

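The aminoacyl-tRNA synthetases described here are 36 genes, 20 named for cytosolic enzymes and 16 for mitochondrial ones, out of 46297 rows in a table of gene expression in CD8+ T cells lacking VHL and in wild-type (WT) cells. Members were taken by name: 35 symbols matched a row directly, and Mars1 was found under its older name Mars. All 36 passed the filter on low values, which asked for a scaled count of 10 or more in 2 or more libraries. No member had a duplicated row.

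RNA was sequenced from 22 libraries in 10 groups of mouse P14 T cells, which carry 1 transgenic receptor for a viral peptide. VHL-deficient cells gave 3 libraries from tumor on day 11, and 2 each on day 7 from unsplit tumor, Trm sorts (tissue-resident memory) and nonTrm sorts of tumor, and spleen. WT cells gave the same groups with the same numbers. All mice were of the C57BL/6 strain, 6 to 12 weeks old, and each replicate pooled 5 mice. The sources used here do not give the means by which Vhl was removed, the kind of tumor, the event that starts the day count or the surface markers that define Trm. The purpose stated by the series title is the comparison of VHL-deficient with wild-type subsets.

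Each synthetase joins 1 amino acid to the tRNAs that carry its anticodons, so that ribosomes read codons correctly. Cytosolic and mitochondrial translation mostly use separate enzymes encoded by separate nuclear genes, but the genes Gars and Kars supply both compartments. Several cytosolic enzymes assemble with 3 scaffold proteins into the multi-synthetase complex. Many synthetase genes are known targets of ATF4, the transcription factor induced when the kinase GCN2 senses uncharged tRNA. T cells that have met antigen raise protein synthesis and amino acid uptake as they divide. VHL is the substrate-binding part of a ubiquitin ligase that marks hypoxia-inducible factor alpha subunits for degradation.

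The libraries held 3375558 to 10211060 assigned reads (median 7193188), and the values below are scaled counts, that is, reads divided by the size factor of the library. Vhl had 0 to 32 reads in VHL-deficient libraries and 60 to 280 in WT libraries, so every genotype label held. All 8 CD8 T cell markers were present in every group. Ribosomal RNA took 26.9% to 45.7% of the reads. The second VHL-deficient nonTrm library stood apart: it had the highest ribosomal RNA share, against at most 42.3% in the other 21 libraries, and a Malat1 scaled count of 34358, against 4839 to 15027 elsewhere. That library was the lowest of all 22 for 23 of the 36 members, so values without it are given below for members and counts that moved by over 1.5 times or changed their call. Transcripts of the mitochondrial genome took 2.89% to 5.57% of reads in VHL-deficient tumor libraries and 7.56% to 12.1% in WT tumor libraries. B cell markers (5 genes) summed to 76.1 to 297 in VHL-deficient tumor libraries and 311 to 1018 in WT tumor libraries, while Ms4a1, a defining marker, was at 0 in 3 of the 10 groups. NK cell markers (4 genes) summed to 66.8 to 430 in VHL-deficient tumor libraries and 150 to 871 in WT tumor libraries. Of these, Ncr1 was at 0 in unsplit day 7 tumor of both genotypes, in VHL-deficient day 11 tumor and in WT Trm. Neutrophil markers (5 genes) summed to 1.82 to 728 in WT day 11 tumor libraries and to at most 13.6 in every other group. The part of these differences in the synthetase results was not tested. In sorted bulk samples, fewer cells of a type and less RNA per cell cannot be told apart.

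Cytosolic synthetases were the more abundant class per kilobase of exon. Their median levels over the 22 libraries ran from 27.1 scaled counts per kb for Aars to 263 for Hars, with Gars at 259, Dars at 233 and Vars at 232. Mitochondrial members ran from 4.79 per kb for Vars2 to 106 for Lars2, and the next highest was Rars2 at 60.1. The median member lay at 117 per kb in the cytosolic class and at 13.5 in the mitochondrial class. Neighbours in this order did not separate: Hars, Gars, Dars, Vars and Sars all lay between 221 and 263 per kb, while their coefficients of variation over libraries were 11.9% to 40.3%. Sars was the steadiest member (coefficient of variation 11.9%, 855 to 1383 scaled counts) and Pars2 the most variable (63.6%, 8.18 to 66.4). Depth limits the mitochondrial class: Pars2 had as few as 3 reads in a library, whereas the lowest cytosolic value was 20 reads, for Cars. Some members overlap other genes, and whether counting used strand is not given in the sources used here: the overlap covers 24.2% of exon bases for Iars2, 15.1% for Aars (with Exosc6), 10.7% for Fars2, 9.47% for Farsb and 7.97% for Hars, whose neighbour is Hars2.

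Across tumor cells, 16 of the 36 synthetases had less RNA in VHL-deficient than in WT cells and passed the test, and 1 had more. The fold change was averaged over the 4 tumor settings (day 11, unsplit day 7, Trm and nonTrm), each setting weighing the same. Of the 36 members, 16 fell, 1 rose (Dars) and 19 did not pass the test, in a comparison in which 31% of all 14327 tested genes were called (16.9% higher and 14.1% lower). In the cytosolic class 11 of 20 fell and in the mitochondrial class 5 of 16 fell. The median log2 fold change was -0.51 over the cytosolic members and -0.38 over the mitochondrial ones, beside 0.05 over all tested genes. Negative values were found for 18 cytosolic and 12 mitochondrial members, against 18 and 16 with TMM scaling (trimmed mean of M-values) and 17 and 11 with voom. Calls were made at an adjusted p under 0.05, by limma with Benjamini-Hochberg adjustment over all tested genes. By voom on the recovered reads, 9 members fell and 0 rose.

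**Figure D1:**
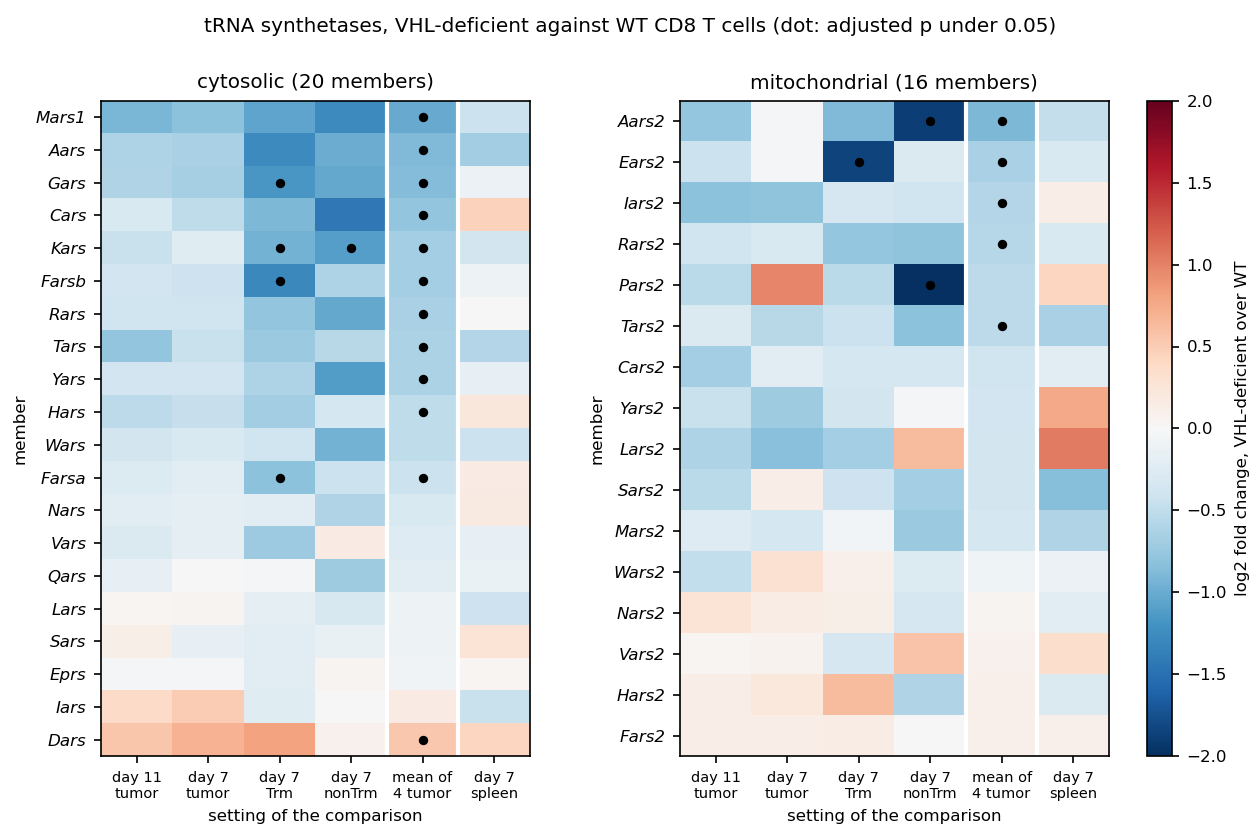
Heat maps of the log2 fold change, VHL-deficient over WT, for 20 cytosolic (left) and 16 mitochondrial (right) synthetases in the 4 tumor settings, in their mean and in spleen, with a dot where the adjusted p was under 0.05. In the column of the mean, 16 of the 17 dots lie on blue cells (lower in VHL-deficient cells) and 1 on the red cell of Dars.

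The smallest adjusted p belonged to Gars, glycyl-tRNA synthetase, on the plus strand at chr6:55038007-55079500 (mm10). The 250 bases before its RefSeq start (chr6:55037751-55038000, plus strand, GRCm38.p6), of which 62.4% are G or C, are shown because this gene lay below WT in every tumor setting, with capitals on an ETS site (reading CTTCCGG) and an ATF4 and C/EBP composite element (reading TTTCATCA), both on the reverse strand.
Gars: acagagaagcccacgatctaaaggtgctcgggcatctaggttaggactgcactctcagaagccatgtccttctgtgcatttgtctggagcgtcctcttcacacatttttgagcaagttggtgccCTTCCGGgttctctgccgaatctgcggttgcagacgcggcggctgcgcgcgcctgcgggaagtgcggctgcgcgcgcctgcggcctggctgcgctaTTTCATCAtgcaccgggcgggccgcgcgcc

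Gars had scaled counts of 734, 786 and 794 on day 11, 859 and 998 in unsplit day 7 tumor, 736 and 519 in Trm and 678 and 273 in nonTrm in VHL-deficient cells. WT counts of Gars were 1063, 1074 and 1409 on day 11, 1281 and 1677 in unsplit day 7 tumor, 1392 and 1383 in Trm and 1041 and 739 in nonTrm. Every VHL-deficient library lay below every WT library of the same setting in all 4 settings. Gars fell, with a mean log2 fold change of -0.86 (SE 0.15, adjusted p = 0.000296).

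Mars1, methionyl-tRNA synthetase, is a member of the multi-synthetase complex, on the minus strand at chr10:127296221-127311786 (mm10), where 1.99% of its exon bases overlap the stress gene Ddit3. The 250 bases before its RefSeq start (chr10:127311787-127312036, minus strand, GRCm38.p6) are shown for the largest cytosolic decrease, with capitals on 3 hypoxia response cores (GCGTG, or CACGC on the reverse strand) and 1 ETS site (CTTCCGG).
Mars1: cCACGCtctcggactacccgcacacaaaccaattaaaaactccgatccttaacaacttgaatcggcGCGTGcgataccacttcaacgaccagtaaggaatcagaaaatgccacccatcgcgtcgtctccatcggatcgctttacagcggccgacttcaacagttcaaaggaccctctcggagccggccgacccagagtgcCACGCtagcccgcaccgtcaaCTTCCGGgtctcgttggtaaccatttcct

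Mars1 had scaled counts of 341, 395 and 506 on day 11, 510.0 and 449.9 in unsplit day 7 tumor, 365 and 232 in Trm and 271 and 109 in nonTrm in VHL-deficient cells. WT counts of Mars1 were 704, 731 and 887 on day 11, 906 and 783 in unsplit day 7 tumor, 369 and 993 in Trm and 498 and 353 in nonTrm. The groups did not overlap in any of the 4 settings, although 1 WT Trm library lay barely above the higher VHL-deficient one. Mars1 fell, with a log2 fold change of -1.01 (SE 0.20, adjusted p = 0.000577).

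Kars and Rars are the other members of the complex that fell. Kars, lysyl-tRNA synthetase, supplies both cytosol and mitochondria. Kars had scaled counts of 625, 649 and 752 on day 11, 927 and 912 in unsplit day 7 tumor, 628 and 531 in Trm and 559 and 259 in nonTrm in VHL-deficient cells. WT counts of Kars were 744, 957 and 1096 on day 11, 1099 and 1084 in unsplit day 7 tumor, 1003 and 1223 in Trm and 871 and 771 in nonTrm. Only the day 11 groups overlapped. Kars fell, with a log2 fold change of -0.69 (SE 0.14, adjusted p = 0.000761). Rars, arginyl-tRNA synthetase, had groups apart in all 4 settings. Rars had scaled counts of 535, 441 and 531 on day 11, 592 and 596 in unsplit day 7 tumor, 474 and 342 in Trm and 366 and 166 in nonTrm in VHL-deficient cells. WT counts of Rars were 554, 656 and 798 on day 11, 722 and 847 in unsplit day 7 tumor, 685 and 713 in Trm and 578 and 434 in nonTrm. The lowest of the 18 values came from the library that stood apart. Rars fell, with a log2 fold change of -0.65 (SE 0.14, adjusted p = 0.00196).

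Dars, aspartyl-tRNA synthetase and also in the complex, went the other way. Its gene is on the minus strand at chr1:128363707-128417368 (mm10). The 250 bases before its RefSeq start (chr1:128417417-128417666, minus strand, GRCm38.p6) are shown for the 1 member that rose. They held 1 of the motifs searched, a hypoxia response core on the reverse strand (CACGC, in capitals).
Dars: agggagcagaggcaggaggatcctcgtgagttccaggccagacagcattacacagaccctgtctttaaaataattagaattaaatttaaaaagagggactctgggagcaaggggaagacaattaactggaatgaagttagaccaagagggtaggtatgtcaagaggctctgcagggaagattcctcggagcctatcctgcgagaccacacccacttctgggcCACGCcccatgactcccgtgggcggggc

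Dars had scaled counts of 1392, 1227 and 1334 on day 11, 1523 and 1602 in unsplit day 7 tumor, 1407 and 1345 in Trm and 1359 and 505 in nonTrm in VHL-deficient cells. WT counts of Dars were 809.6, 907 and 989 on day 11, 978 and 952 in unsplit day 7 tumor, 565 and 1097 in Trm and 1038 and 591 in nonTrm. The VHL-deficient libraries lay above all WT libraries on day 11, in unsplit day 7 tumor and in Trm, and overlapped with them in nonTrm. Dars rose, with a log2 fold change of 0.53 (SE 0.18, adjusted p = 0.0257). The call was lost in 5 of the 18 fits that each left out 1 tumor library: its log2 fold change was 0.35 without VHL-deficient nonTrm replicate 1, 0.52 without VHL-deficient unsplit tumor replicate 2, 0.43 without WT nonTrm replicate 2, 0.41 without WT Trm replicate 1 and 0.53 without WT unsplit tumor replicate 2. No other cytosolic member had a positive value in all 4 settings.

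**Figure D2:**
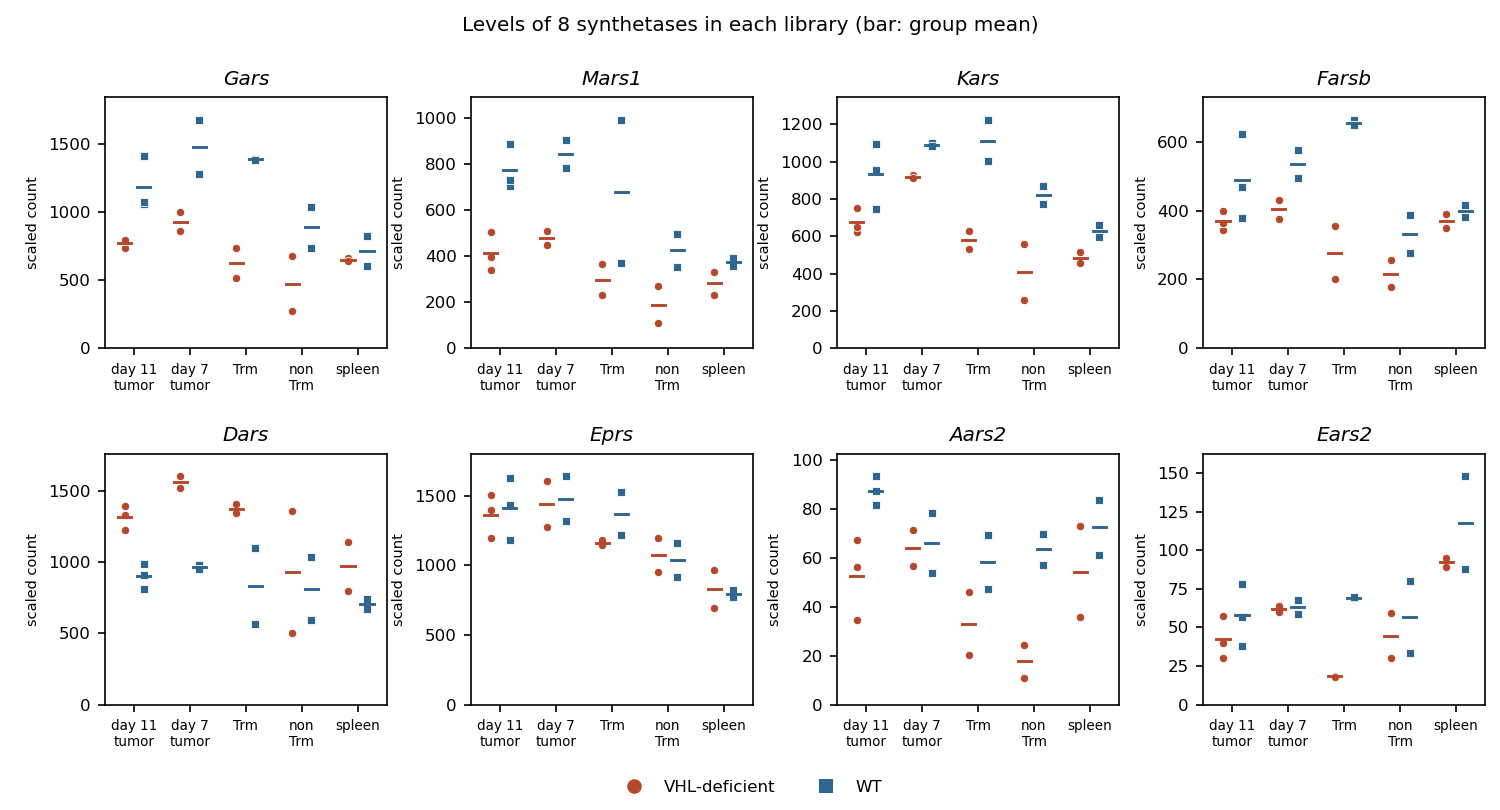
Scaled counts of 8 synthetases in each library (circles VHL-deficient, squares WT, bars the group mean) in day 11 tumor, unsplit day 7 tumor, Trm, nonTrm and spleen. VHL-deficient Gars ran from 273 to 998 and WT Gars from 739 to 1677 in tumor, while Dars showed the opposite order in 3 settings and Eprs overlapped in 3 of the 4 tumor settings.

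Farsa and Farsb encode the alpha and beta subunits of cytosolic phenylalanyl-tRNA synthetase, and both fell. Farsb had scaled counts of 343, 364 and 400.3 on day 11, 376 and 431 in unsplit day 7 tumor, 355 and 200.3 in Trm and 256 and 177 in nonTrm in VHL-deficient cells. WT counts of Farsb were 377, 469 and 623 on day 11, 495 and 576 in unsplit day 7 tumor, 663 and 648 in Trm and 386 and 278 in nonTrm. The groups met on day 11 only, and the gap was widest in Trm. Farsb fell, with a log2 fold change of -0.67 (SE 0.14, adjusted p = 0.00111). Farsa had scaled counts of 434, 395 and 433 on day 11, 502 and 472 in unsplit day 7 tumor, 408 and 286 in Trm and 386 and 295 in nonTrm in VHL-deficient cells. WT counts of Farsa were 459.5, 495 and 571 on day 11, 531 and 609 in unsplit day 7 tumor, 674 and 546 in Trm and 508 and 405 in nonTrm. The 2 genotypes did not overlap in any tumor setting, by a smaller distance than for Farsb. Farsa fell, with a log2 fold change of -0.44 (SE 0.12, adjusted p = 0.0105).

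The other cytosolic members that fell were Hars, Cars, Tars, Yars and Aars, the enzymes for histidine, cysteine, threonine, tyrosine and alanine. Hars had scaled counts of 525, 457 and 606 on day 11, 698 and 613 in unsplit day 7 tumor, 649 and 489.9 in Trm and 510.1 and 527 in nonTrm in VHL-deficient cells. WT counts of Hars were 680.2, 743 and 865 on day 11, 789.6 and 1021 in unsplit day 7 tumor, 988 and 851 in Trm and 682 and 639 in nonTrm. No tumor setting had overlapping groups. Hars fell, with a log2 fold change of -0.51 (SE 0.12, adjusted p = 0.00317). Cars had scaled counts of 179, 204 and 241 on day 11, 239 and 217 in unsplit day 7 tumor, 202 and 143 in Trm and 170.3 and 54.6 in nonTrm in VHL-deficient cells. WT counts of Cars were 215, 238 and 327 on day 11, 364 and 287 in unsplit day 7 tumor, 284 and 359 in Trm and 279.9 and 246 in nonTrm. Overlap was limited to day 11. Cars fell, with a log2 fold change of -0.79 (SE 0.19, adjusted p = 0.00441). Tars had scaled counts of 296, 281 and 390.4 on day 11, 488 and 359 in unsplit day 7 tumor, 297 and 244 in Trm and 355 and 166 in nonTrm in VHL-deficient cells. WT counts of Tars were 527, 533 and 604 on day 11, 590.0 and 548 in unsplit day 7 tumor, 372 and 552 in Trm and 443 and 289 in nonTrm. The groups were apart in all settings but nonTrm. Tars fell, with a log2 fold change of -0.63 (SE 0.15, adjusted p = 0.0042). Yars had scaled counts of 336, 318 and 361 on day 11, 427 and 349 in unsplit day 7 tumor, 345 and 274 in Trm and 271 and 109 in nonTrm in VHL-deficient cells. WT counts of Yars were 365, 487 and 489 on day 11, 558 and 456 in unsplit day 7 tumor, 422 and 527 in Trm and 470.3 and 297 in nonTrm. In each of the 4 settings the groups were apart. Yars fell, with a log2 fold change of -0.63 (SE 0.16, adjusted p = 0.00606). Aars had scaled counts of 264, 217 and 265 on day 11, 254 and 251 in unsplit day 7 tumor, 198 and 119 in Trm and 240.0 and 57.3 in nonTrm in VHL-deficient cells. WT counts of Aars were 339, 430.4 and 375 on day 11, 522 and 299 in unsplit day 7 tumor, 253 and 547 in Trm and 408 and 135 in nonTrm. Only in nonTrm did the groups overlap. Aars fell, with a log2 fold change of -0.88 (SE 0.25, adjusted p = 0.0122).

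Of the mitochondrial members, Aars2, Rars2, Tars2, Ears2 and Iars2 fell. Aars2 charges mitochondrial alanine tRNA, and its low counts rest on as few as 4 reads in a library. Aars2 had scaled counts of 67.3, 34.6 and 56.4 on day 11, 56.8 and 71.7 in unsplit day 7 tumor, 46.1 and 20.2 in Trm and 24.6 and 10.9 in nonTrm in VHL-deficient cells. WT counts of Aars2 were 87.5, 81.6 and 93.4 on day 11, 78.5 and 54.1 in unsplit day 7 tumor, 47.3 and 69.4 in Trm and 70.0 and 57.2 in nonTrm. The groups overlapped in unsplit day 7 tumor only. Aars2 fell, with a log2 fold change of -0.89 (SE 0.23, adjusted p = 0.00606). Rars2 is the mitochondrial arginyl enzyme. Rars2 had scaled counts of 146, 161 and 99.1 on day 11, 116 and 173 in unsplit day 7 tumor, 137 and 96.3 in Trm and 110.1 and 79.1 in nonTrm in VHL-deficient cells. WT counts of Rars2 were 157, 178 and 195 on day 11, 172 and 179 in unsplit day 7 tumor, 209 and 184 in Trm and 154 and 173 in nonTrm. The groups were apart in Trm and nonTrm and overlapped in the other settings. Rars2 fell, with a log2 fold change of -0.57 (SE 0.14, adjusted p = 0.00582). Tars2 is the mitochondrial threonyl enzyme. Tars2 had scaled counts of 217, 202 and 230.3 on day 11, 209.7 and 251 in unsplit day 7 tumor, 285 and 179 in Trm and 187 and 158 in nonTrm in VHL-deficient cells. WT counts of Tars2 were 253, 243 and 298 on day 11, 327 and 350.4 in unsplit day 7 tumor, 273 and 342 in Trm and 294 and 314 in nonTrm. Overlap was seen in Trm only. Tars2 fell, with a log2 fold change of -0.52 (SE 0.15, adjusted p = 0.0144), a call lost without VHL-deficient Trm replicate 2 (log2 fold change -0.44).

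Ears2 and Iars2 lost their calls most often. Ears2 charges mitochondrial glutamate tRNA. Ears2 had scaled counts of 30.2, 40.0 and 57.2 on day 11, 63.6 and 59.9 in unsplit day 7 tumor, 18.8 and 17.9 in Trm and 59.5 and 30.01 in nonTrm in VHL-deficient cells. WT counts of Ears2 were 78.4, 57.1 and 38.0 on day 11, 67.6 and 58.8 in unsplit day 7 tumor, 68.9 and 69.4 in Trm and 79.8 and 33.4 in nonTrm. The groups were apart in Trm alone. Ears2 fell, with a log2 fold change of -0.65 (SE 0.22, adjusted p = 0.0299), a call lost in 9 of the 18 fits with 1 tumor library left out, in which the values ran from -0.80 to -0.50. Iars2 is the mitochondrial isoleucyl enzyme, and 24.2% of its exon bases overlap another gene. Iars2 had scaled counts of 72.0, 171 and 203 on day 11, 114 and 142 in unsplit day 7 tumor, 63.9 and 95.5 in Trm and 65.0 and 35.5 in nonTrm in VHL-deficient cells. WT counts of Iars2 were 243, 251 and 229 on day 11, 317 and 158 in unsplit day 7 tumor, 77.0 and 126 in Trm and 85.0 and 47.7 in nonTrm. The groups were apart on day 11 and in unsplit day 7 tumor. Iars2 fell, with a log2 fold change of -0.59 (SE 0.22, adjusted p = 0.0431), and lost the call in 11 of 18 such fits, with values from -0.72 to -0.47.

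Cars, Farsb, Gars, Hars, Kars, Mars1, Rars, Aars2 and Rars2, 9 of the 17 called members, were called under all 30 other settings tried. Farsa, Gars, Hars, Mars1, Rars and Yars were lower without overlap in all 4 tumor settings. The share of all tested genes lower in this way is not given here. With all libraries kept, values were negative in all 4 settings for 14 of 20 cytosolic and 8 of 16 mitochondrial members. Of these, Aars, Qars, Wars, Ears2, Iars2, Mars2 and Yars2 had a positive nonTrm value without VHL-deficient nonTrm replicate 2. Lars2, which was positive in nonTrm only, turned negative there (0.63 to -0.32). Without VHL-deficient nonTrm replicate 2, 15 members fell and 1 rose: Ears2 (-0.53) and Iars2 (-0.48) lost their calls and Lars2 gained one. None of the 17 called members moved by over 1.5 times on leaving it out, with Aars at -0.62, Cars at -0.58 and Dars at 0.71. Over all 36 members, 13 uncalled ones moved by over 1.5 times and 0 changed sign in the mean over the 4 settings. Genes of cell division moved with these members: Mki67, a marker of dividing cells, had a log2 fold change of -1.48 (SE 0.13, adjusted p = 7.71e-08), and its part in the result was not tested.

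The remaining 8 cytosolic members did not pass the test. Wars, tryptophanyl-tRNA synthetase, known in human cells as a target of interferon gamma, ran from 70.9 to 473 (median 408) in VHL-deficient tumor libraries and 296 to 599 (median 494) in WT ones, with a log2 fold change of -0.50 (SE 0.23, adjusted p = 0.107). Without VHL-deficient nonTrm replicate 2, which had the lowest count of Wars, the value was -0.18. Nars (-0.30), Vars (-0.26) and Qars (-0.23), the asparaginyl, valyl and glutaminyl enzymes, had smaller negative log2 fold changes, which without that library were -0.16, -0.10 and -0.02 in the same order. Lars (-0.10), Sars (-0.10), Eprs (-0.07) and Iars (0.16) lay nearest to 0 on the same scale. Without that library Lars was at -0.04, Eprs at -0.02 and Iars at 0.29. Eprs, which joins glutamyl and prolyl activities in 1 protein, ran from 955 to 1604 (median 1199) in VHL-deficient tumor libraries and 916 to 1639 (median 1319) in WT ones. Thus within the complex Mars1, Kars and Rars fell, Dars rose, and Eprs, Iars, Lars and Qars did not pass the test. The class I enzymes, which share the Rossmann fold, had 4 of 10 that fell (median -0.38), and class II had 7 of 10 that fell and 1 that rose (median -0.57). Of the 11 cytosolic members widely described as ATF4 targets 6 fell (median -0.63), and of the other 9 cytosolic members 5 fell and 1 rose (median -0.44). The difference between these classes was not tested.

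Among mitochondrial members that did not pass, Pars2 (-0.53), Cars2 (-0.40), Lars2 (-0.37), Yars2 (-0.39), Sars2 (-0.37) and Mars2 (-0.35) had log2 fold changes between -0.53 and -0.35, and Wars2, Nars2, Vars2, Hars2 and Fars2 lay between -0.09 and 0.10. Mars2 was at -0.10, Hars2 at 0.24, Fars2 at 0.18, Nars2 at 0.11 and Wars2 at -0.02 without VHL-deficient nonTrm replicate 2. Fars2, the mitochondrial phenylalanyl enzyme, ran from 183 to 280.3 (median 224) in VHL-deficient tumor libraries and 192 to 246 (median 215) in WT ones.

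Lars2, the mitochondrial leucyl enzyme at chr9:123366927-123462666 (mm10), had its 4 highest levels in the 4 libraries with the highest scaled counts of ribosomal RNA. Lars2 had scaled counts of 899.9, 1151 and 1453 on day 11, 818 and 871 in unsplit day 7 tumor, 1195 and 781 in Trm and 879 and 3290.1 in nonTrm in VHL-deficient cells. WT counts of Lars2 were 1761, 1627 and 1890.3 on day 11, 1201 and 1891 in unsplit day 7 tumor, 2484 and 965 in Trm and 1191 and 1008 in nonTrm. In spleen Lars2 stood at 2157 and 1044 in VHL-deficient cells and 991 and 534 in WT cells. Those 4 libraries, with ribosomal RNA at 4950084, 3188505, 2882977 and 2761763 scaled counts, had Lars2 at 3290.1, 2157, 2484 and 1891. The library with the least, at 1564507, had the lowest Lars2 level, 534. Between these ends the orders differed: WT nonTrm replicate 2 was the 5th of 22 for ribosomal RNA and the 14th for Lars2, VHL-deficient unsplit tumor replicate 1 the 8th and the 20th, and WT day 11 replicate 3 the 17th and the 5th. As a percent of reads, ribosomal RNA was 30.1% in WT Trm replicate 1, which had the second highest Lars2 level, and 36.04% in WT spleen replicate 1, the 15th. In the mean over tumor settings Lars2 had a log2 fold change of -0.37 (SE 0.24, adjusted p = 0.246), and -0.61 (adjusted p = 0.0203, limma) without VHL-deficient nonTrm replicate 2. Ribosomal RNA and Lars2 counts share the size factor of the library, and the part of ribosomal RNA in the Lars2 values was not tested.

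**Figure D3:**
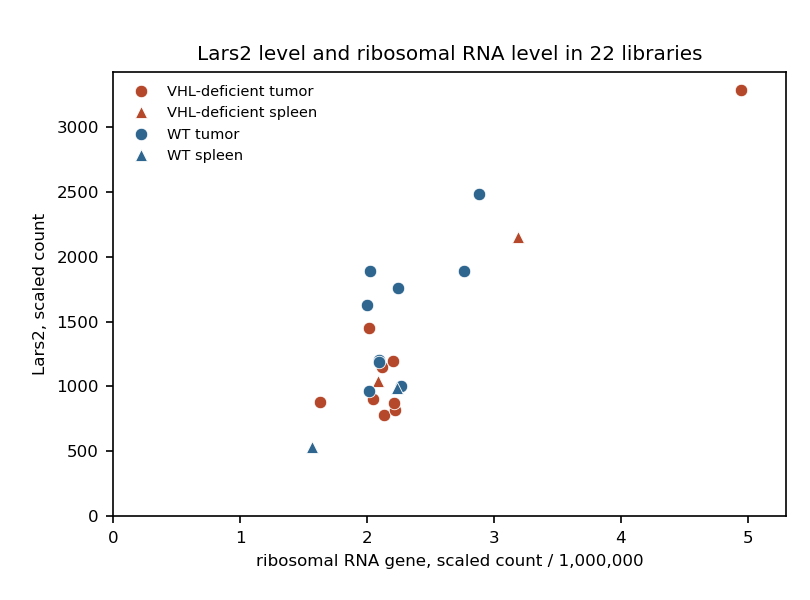
Lars2 scaled count (vertical) against the scaled count of the ribosomal RNA gene (horizontal), 1 point per library, circles for tumor and triangles for spleen. The point at the upper right is VHL-deficient nonTrm replicate 2, at 4.95 and 3290.1.

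Taken 1 setting at a time, the same comparison gave few calls. On day 11, with 3 libraries per genotype, 0 members were called by limma or by voom, 6 had an unadjusted p under 0.05, and 6.87% of all tested genes were called. The 28 negative values included 15 members whose VHL-deficient libraries all lay below the WT libraries, and 1 member, Dars, lay wholly above. How many of all tested genes lay apart in this way is not given here, so these counts describe the members only. The smallest adjusted p belonged to Tars (log2 fold change -0.79, SE 0.26, adjusted p = 0.0756), followed by Mars1 (-0.91, SE 0.33, adjusted p = 0.11). Hars (-0.53), Cars2 (-0.68), Gars (-0.60) and Iars2 (-0.82) also had an unadjusted p under 0.05. A fit of the day 11 groups alone called 7 members, 6 lower and 1 higher, library weights gave the same numbers, and leaving out VHL-deficient nonTrm replicate 2, a library of another group that enters the shared spread, gave 3 lower.

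In unsplit day 7 tumor, limma and voom called 0 members, 0 had an unadjusted p under 0.05, and 1.91% of tested genes were called. Gars (-0.66, SE 0.32, adjusted p = 0.376), Mars1 (-0.81, SE 0.41, adjusted p = 0.389) and Dars (0.69, SE 0.37, adjusted p = 0.418) had the largest effects relative to their errors on the log2 scale. The genotypes did not overlap for 21 members, 17 lower and 4 higher. The share of all tested genes without overlap is not given here, so this count is no result about the members.

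In Trm cells 5 members fell and 0 rose, while 10.1% of tested genes were called (5.07% higher and 5.03% lower). They were both phenylalanyl subunits, Farsb (log2 fold change -1.29, SE 0.29, adjusted p = 0.00773) and Farsa (-0.83, SE 0.25, adjusted p = 0.0439), together with Ears2 (-1.86, SE 0.46, adjusted p = 0.0139), Gars (-1.16, SE 0.32, adjusted p = 0.0265) and Kars (-0.94, SE 0.28, adjusted p = 0.0401). The cytosolic median log2 fold change was -0.72 and the mitochondrial one -0.35, beside 0.09 over all genes. The count was 0 without VHL-deficient Trm replicate 2, 1 without either WT Trm library and 10 without VHL-deficient nonTrm replicate 2, and voom called 0. In the same comparison 11 of 16 proliferation genes fell, as did Myc, the growth-promoting transcription factor (-1.32, SE 0.35, adjusted p = 0.0199); their part in the result was not tested.

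In nonTrm cells 3 members fell and 0 rose, while 2.32% of tested genes were called (1.65% higher and 0.67% lower). On leaving out VHL-deficient nonTrm replicate 2, 27 of the 36 log2 fold changes moved by over 1.5 times and 11 changed sign. Pars2 charges mitochondrial proline tRNA. Pars2 had scaled counts of 20.9, 9.99 and 16.8 on day 11, 37.9 and 32.3 in unsplit day 7 tumor, 11.5 and 14.8 in Trm and 8.21 and 8.18 in nonTrm in VHL-deficient cells. WT counts of Pars2 were 20.1, 38.8 and 14.7 on day 11, 25.1 and 11.8 in unsplit day 7 tumor, 25.7 and 14.6 in Trm and 30.9 and 41.7 in nonTrm. Pars2 was higher without overlap in unsplit day 7 tumor and lower without overlap in nonTrm. The calls were Pars2 (log2 fold change -2.00, SE 0.53, adjusted p = 0.0498), Aars2 (-1.88, SE 0.48, adjusted p = 0.0393) and Kars (-1.10, SE 0.28, adjusted p = 0.0426). Without VHL-deficient nonTrm replicate 2, the library that stood apart, 0 members were called, and the log2 fold changes were -2.00 for Pars2, -1.33 for Aars2 and -0.55 for Kars. Without replicate 1 instead, 16 were called, 15 of them lower, and without either WT nonTrm library, with the replicate block or by voom, 0 were called.

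In spleen limma and voom called 0 members, 1 had an unadjusted p under 0.05, and 3.18% of tested genes were called. The median log2 fold change was -0.12 over cytosolic and -0.21 over mitochondrial members, and 12 of 20 cytosolic members had a negative value. Gars, for instance, had 662 and 642 in VHL-deficient spleen cells and 824 and 607 in WT spleen cells, which overlap. Mars1 had 230.2 and 333 in VHL-deficient spleen cells and 359 and 392 in WT spleen cells, with a log2 fold change of -0.44 (SE 0.41, adjusted p = 0.746). Leaving out VHL-deficient spleen replicate 2 gave 1 call. Summed over the 20 cytosolic members, scaled counts were 9251 and 11095 in VHL-deficient spleen and 10009 and 10784 in WT spleen.

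The difference in genotype effect between tissues was tested as an interaction, on the unsplit day 7 tumor and spleen groups. It called 0 members by limma and by voom, 2 had an unadjusted p under 0.05, and 0.0698% of all genes were called. These 2 were Lars2 (log2 difference -1.88, SE 0.71, adjusted p = 0.407) and Yars2, the mitochondrial tyrosyl enzyme (-1.47, SE 0.69, adjusted p = 0.509). The genotype effects in tumor and spleen were therefore not shown to differ for any member.

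On day 7, 9 of the 20 cytosolic synthetases rose in tumor against spleen with the deposited scaling, a count that was 1 or 0 under 2 of the other scalings, and 1 of the 16 mitochondrial ones rose and 2 fell. Averaged over both genotypes, 10 members rose and 2 fell, while 31.1% of tested genes were called (18.3% higher and 12.8% lower), and 9 of those that rose were cytosolic. All 20 cytosolic members had a positive value (16 with totals and 17 with voom), with a median log2 fold change of 0.61, beside 0.08 over all genes and -0.08 over mitochondrial members, 7 of 16 of which were positive.

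Markers of other cells moved with this contrast. Dendritic cell markers (6 genes) summed to 167 to 349 in tumor libraries and 798 to 1254 in spleen libraries, with Clec9a at 0 in both tumor groups and in WT spleen. NK cell markers summed to 189 to 494 in tumor and 50.9 to 97.4 in spleen, with Ncr1 at 0 in all of these groups but WT spleen. Macrophage and monocyte markers (8 genes) summed to 36.5 to 87.0 in tumor and 15.3 to 30.4 in spleen, with C1qa at 0 in all 4 groups. Melanoma markers (6 genes) summed to 25.2 to 37.1 in tumor and 66.8 to 98.3 in spleen. The part of these cells in the synthetase result was not tested.

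The counts of synthetases called depended on scaling. The median of all tested genes was 0.08 with the deposited size factors, 0.24 with TMM, -0.18 with totals that leave out ribosomal and mitochondrial genes, and -0.15 with voom. TMM gave 18 higher and 0 lower, totals 1 higher and 4 lower, and voom 0 higher and 3 lower. The shares of all tested genes called under these scalings are not given here, so these counts describe the members only. Relative to the median of all genes, the cytosolic median stood 0.51 to 0.54 higher on the log2 scale and the mitochondrial one 0.12 to 0.17 lower under each of the 5 scalings. All 20 cytosolic members lay above the all-gene median under each scaling, while 16 with totals and 17 with voom were above 0. A change of scaling shifts all genes of a comparison nearly alike. The distances to the all-gene median could therefore hardly change, and their likeness between scalings is no test of the result.

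**Figure D4:**
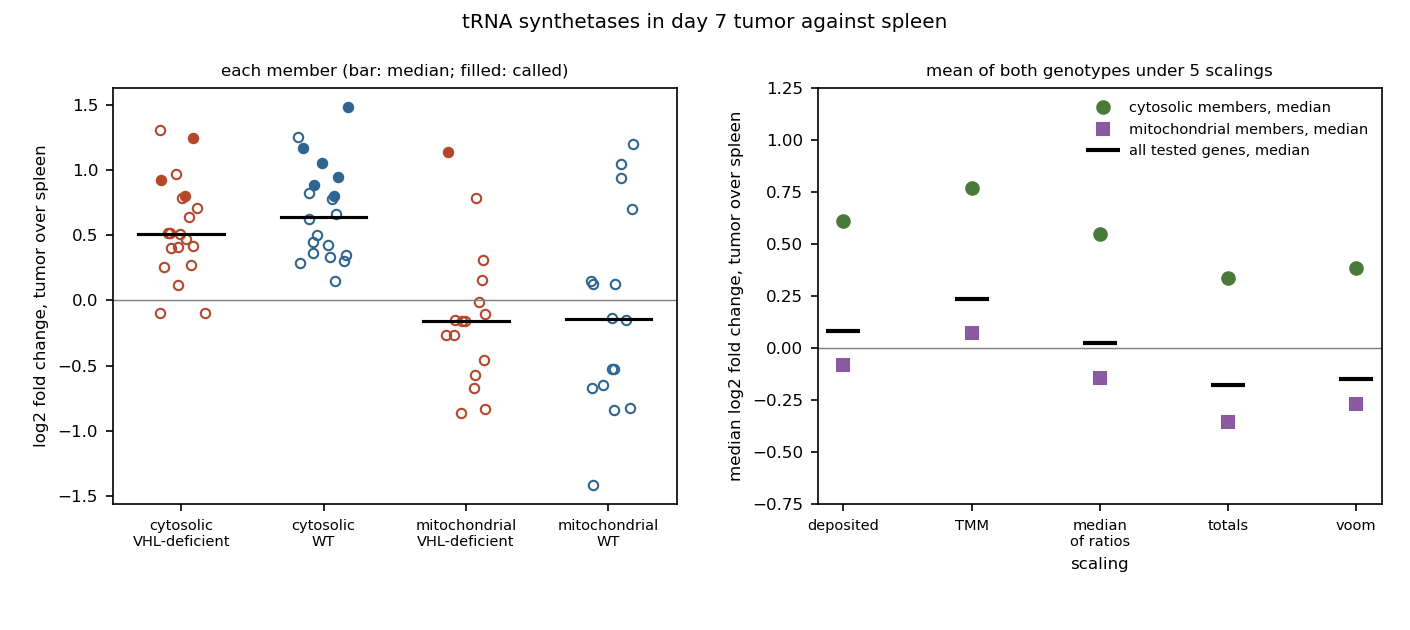
Left, log2 fold change of each member, tumor over spleen, by class and genotype (filled where called, bar at the median). Right, median log2 fold change of cytosolic members, mitochondrial members and all tested genes under 5 scalings. The cytosolic median lies above the all-gene bar and the mitochondrial median below it each time. Scaling shifts all genes nearly alike, so these distances could hardly differ between scalings.

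Eprs and Kars kept their calls in 20 and 19 of 21 alternatives. Eprs had 1604 and 1276 in VHL-deficient tumor cells and 1639 and 1319 in WT tumor cells, against 697 and 969 in VHL-deficient spleen cells and 822 and 772 in WT spleen cells. Every tumor library was above every spleen library, as was also found for Kars, Cars, Mars1, Rars, Aars and Gars. Eprs rose, with a log2 fold change of 0.84 (SE 0.18, adjusted p = 0.00102). Kars had 927 and 912 in VHL-deficient tumor cells and 1099 and 1084 in WT tumor cells, against 458 and 514 in VHL-deficient spleen cells and 596 and 661 in WT spleen cells, and rose by 0.86 (SE 0.20, adjusted p = 0.00271) on the log2 scale. Cars had 239 and 217 in VHL-deficient tumor cells and 364 and 287 in WT tumor cells, against 186 and 136 in VHL-deficient spleen cells and 156 and 84.9 in WT spleen cells. Cars rose, with a log2 fold change of 1.00 (SE 0.28, adjusted p = 0.011). Among the genes of the complex, Mars1 had 510.0 and 449.9 in VHL-deficient tumor cells and 906 and 783 in WT tumor cells, against 230.2 and 333 in VHL-deficient spleen cells and 359 and 392 in WT spleen cells. Its log2 fold change was 0.98 (SE 0.29, adjusted p = 0.0138). Rars, with 592 and 596 in VHL-deficient tumor cells and 722 and 847 in WT tumor cells, against 483 and 408 in VHL-deficient spleen cells and 462 and 422 in WT spleen cells, rose by 0.62 (SE 0.21, adjusted p = 0.0312). Lars, leucyl-tRNA synthetase, described in human cells as a sensor of leucine for mTORC1 signalling, had 300.3 and 343 in VHL-deficient tumor cells and 378 and 252 in WT tumor cells, against 134 and 199 in VHL-deficient spleen cells and 156 and 304 in WT spleen cells. The higher WT spleen library lay above the lower WT tumor library. Lars rose, with a log2 fold change of 0.73 (SE 0.23, adjusted p = 0.0212).

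Aars had the largest change of the cytosolic calls, with 254 and 251 in VHL-deficient tumor cells and 522 and 299 in WT tumor cells, against 91.6 and 112 in VHL-deficient spleen cells and 163 and 168 in WT spleen cells. Its log2 fold change was 1.28 (SE 0.37, adjusted p = 0.0125). Gars had 859 and 998 in VHL-deficient tumor cells and 1281 and 1677 in WT tumor cells, against 662 and 642 in VHL-deficient spleen cells and 824 and 607 in WT spleen cells. Gars rose, with a log2 fold change of 0.78 (SE 0.23, adjusted p = 0.0133). Hars had 698 and 613 in VHL-deficient tumor cells and 789.6 and 1021 in WT tumor cells, against 451 and 664 in VHL-deficient spleen cells and 515 and 421 in WT spleen cells. A VHL-deficient spleen library lay above a VHL-deficient tumor library. The log2 fold change of Hars was 0.60 (SE 0.18, adjusted p = 0.0132). Tars2, the mitochondrial member that rose, had 209.7 and 251 in VHL-deficient tumor cells and 327 and 350.4 in WT tumor cells, against 84.9 and 207 in VHL-deficient spleen cells and 203 and 212 in WT spleen cells. Tumor and spleen were apart within each genotype. Tars2 rose, with a log2 fold change of 0.74 (SE 0.23, adjusted p = 0.0173), and the call was lost without VHL-deficient spleen replicate 1 (0.43) and without VHL-deficient tumor replicate 2 (0.68). Pars2 and Cars2 fell, with every tumor library below every spleen library. Pars2 had 37.9 and 32.3 in VHL-deficient tumor cells and 25.1 and 11.8 in WT tumor cells, against 62.6 and 66.4 in VHL-deficient spleen cells and 57.1 and 39.8 in WT spleen cells, with a log2 fold change of -1.14 (SE 0.37, adjusted p = 0.0253). Cars2, the mitochondrial cysteinyl enzyme, had 124 and 106 in VHL-deficient tumor cells and 116 and 158 in WT tumor cells, against 186 and 181 in VHL-deficient spleen cells and 217 and 206 in WT spleen cells, with a log2 fold change of -0.66 (SE 0.23, adjusted p = 0.0358). Of these calls Eprs and Kars held in all 9 fits that left out 1 library. Aars lost its call without WT tumor replicate 1 (1.08) and Cars without WT spleen replicate 2 (0.78). Mars1 lost it without VHL-deficient spleen replicate 1 (0.84) and without VHL-deficient tumor replicate 1 (0.93). Gars lost it in 3 of the 9 (log2 fold changes 0.67 to 0.72), Hars in 4 (0.46 to 0.55), Lars in 4 (0.50 to 0.69), Rars in 6 (0.56 to 0.65), Pars2 in 6 (-1.20 to -0.88) and Cars2 in 7 (-0.72 to -0.55). The count fell to 7 without VHL-deficient spleen replicate 1, to 7 without VHL-deficient tumor replicate 1 and to 6 without VHL-deficient tumor replicate 2.

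Within VHL-deficient cells, 4 members rose and 0 fell, while 15.4% of tested genes were called. They were Eprs (log2 fold change 0.80, SE 0.25, adjusted p = 0.0329), Kars (0.92, SE 0.28, adjusted p = 0.0318), Iars, the isoleucyl enzyme (1.24, SE 0.41, adjusted p = 0.0468), and the mitochondrial seryl enzyme Sars2 (1.14, SE 0.36, adjusted p = 0.0347). Iars had 418 and 473 in VHL-deficient tumor cells and 506 and 193 in WT tumor cells, against 179 and 196 in VHL-deficient spleen cells and 203 and 324 in WT spleen cells. Sars2 had 89.3 and 106 in VHL-deficient tumor cells and 85.1 and 91.7 in WT tumor cells, against 42.5 and 45.1 in VHL-deficient spleen cells and 106 and 59.7 in WT spleen cells. The VHL-deficient groups did not overlap for either gene, while the WT groups did. The count was 0 without VHL-deficient spleen replicate 1 or without either VHL-deficient tumor library and 2 without spleen replicate 2.

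Within WT cells, 6 members rose and 0 fell, while 21.5% of tested genes were called. These were Hars (log2 fold change 0.95, SE 0.25, adjusted p = 0.0104), Cars (1.48, SE 0.40, adjusted p = 0.0124), Eprs (0.88, SE 0.25, adjusted p = 0.0153), Gars (1.05, SE 0.32, adjusted p = 0.0252), Mars1 (1.17, SE 0.41, adjusted p = 0.0465) and Kars (0.80, SE 0.28, adjusted p = 0.0499). The count was 0 without WT spleen replicate 2, 2 without WT tumor replicate 2, 3 without WT spleen replicate 1 and 3, 1 of them lower, without WT tumor replicate 1. Whether WT and VHL-deficient cells differed in this contrast is the interaction given above, which called 0 members.

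Between Trm and nonTrm cells no member was called. In VHL-deficient cells limma and voom called 0, 6 had an unadjusted p under 0.05, and 0.00698% of all genes were called; 32 of 36 members had a positive value, and 19 of 36 without VHL-deficient nonTrm replicate 2. Yars (0.83, SE 0.34, adjusted p = 0.524) and Ears2 (-1.16, SE 0.46, adjusted p = 0.524) had the smallest p values. Without VHL-deficient nonTrm replicate 2 they were at 0.18 and -1.64. Leaving out VHL-deficient nonTrm replicate 1 gave 13 calls, 12 of them higher in Trm, against the lone library that stood apart. In WT cells limma and voom again called 0, 1 member (Farsb, 1.00, SE 0.29, adjusted p = 0.141) had an unadjusted p under 0.05, 30 values were positive, and 0.3% of all genes were called. The interaction of genotype with subset called 0 by limma and by voom, with 2 unadjusted p under 0.05, Hars2 (1.23, SE 0.49, adjusted p = 0.576) and Ears2 (-1.58, SE 0.65, adjusted p = 0.584), and 0% of all genes. Hars2 was at 0.64 and Ears2 at -2.06 without VHL-deficient nonTrm replicate 2. Without VHL-deficient nonTrm replicate 1 the interaction called 5.

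Sample titles end in a different number on day 11 than in unsplit day 7 tumor. The labels do not say what that code marks, and it cannot be told apart from day. All 20 cytosolic members had a negative log2 fold change in both genotypes with the deposited scaling (18 in VHL-deficient and 15 in WT cells with voom), with medians of -0.24 in VHL-deficient and -0.18 in WT cells. Limma and voom called 0 members in VHL-deficient cells, where 2 had an unadjusted p under 0.05 (Sars2, -0.94, SE 0.33, adjusted p = 0.903, and Pars2, -1.15, SE 0.48, adjusted p = 1), and 0% of all genes were called. In WT cells 0 members were called by either tool, 0 had an unadjusted p under 0.05, and 0% of all genes were called. The interaction of genotype with day called 0 by limma and by voom, 1 member had an unadjusted p under 0.05 (Pars2, -1.52, SE 0.68, adjusted p = 1), and 0% of all genes were called.

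Genes that work with the synthetases were taken from lists chosen with earlier results of these data known, and values in parentheses are their log2 fold changes. Of the 3 scaffold proteins, in the mean over tumor settings Eef1e1 fell (-0.49, SE 0.14, adjusted p = 0.0133), Aimp2 rose (0.40, SE 0.14, adjusted p = 0.0387) and Aimp1 had a log2 fold change of -0.23 (SE 0.15, adjusted p = 0.254). Aimp2 had 231, 241 and 199.8 on day 11, 254 and 268 in unsplit day 7 tumor, 243 and 178 in Trm and 181 and 316 in nonTrm in VHL-deficient cells. WT counts of Aimp2 were 149.5, 175 and 207 on day 11, 152 and 202 in unsplit day 7 tumor, 273 and 195 in Trm and 126 and 141 in nonTrm. The groups were apart in unsplit day 7 tumor and nonTrm and overlapped on day 11 and in Trm. Of 6 genes of cytosolic elongation factors and their subunits, 4 fell: Eef1g (-1.32), Eef1b2 (-0.87), Eef1a1 (-0.74) and Eif5a (-0.50). Of 31 genes of tRNA export, processing and quality control, 9 fell and 0 rose, led by the splicing endonuclease subunit Tsen54 (-0.85), the ligase partners Ddx1 (-0.84) and Rtcb (-0.51), and Osgep (-0.69). Xpot, the tRNA exporter, had a log2 fold change of 0.56 (SE 0.28, adjusted p = 0.136). RNA polymerase III and its factors, which make tRNA, had 2 higher (Polr3gl, 1.14, and Polr3a, 0.53) and 2 lower (among them Gtf3c5, -0.67) of 22, shares below the 16.9% and 14.1% of all tested genes. Of 24 genes of mitochondrial translation factors, tRNA enzymes and transcription, 6 fell. They were led by the amidotransferase subunit Qrsl1 (-1.62), the transcription factor Tfam (-0.53), Tsfm (-0.69) and Gtpbp3 (-0.58).

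In the same mean, 14.1% of all tested genes were lower and 16.9% higher. The GCN2 and ATF4 list had 8 of 26 genes lower and 4 higher, the latter a share below that of all tested genes. The one-carbon metabolism gene Mthfd2 (-1.64), the serine synthesis genes Phgdh (-1.31) and Psat1 (-1.35), and Asns (-1.60), for asparagine synthesis, fell. Trib3 rose (1.22). Atf4 itself had a log2 fold change of -0.13 (SE 0.14, adjusted p = 0.519). Of 17 MYC genes and MYC-linked ribosome biogenesis genes, 9 fell, among them Nop58 (-0.78), Nolc1 (-0.77) and Srm (-1.14), and Mxi1, a MYC antagonist, rose (1.38). Myc had a log2 fold change of -0.35 (SE 0.17, adjusted p = 0.121). Of 16 interferon gamma response genes 4 fell and 1 rose, the latter again a share below the 16.9% of all tested genes. Of 16 proliferation genes 14 fell and 0 rose, with Mki67 joined by Tyms (-1.51), Rrm2 (-1.85) and Cdk1 (-1.84).

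In tumor against spleen, averaged over genotypes, 16 of 16 proliferation genes rose, with Mki67 at 2.49 (SE 0.20, adjusted p = 8.63e-09). The GCN2 and ATF4 list had 17 of 26 higher, including Atf3 (8.37), Psat1 (2.07), Mthfd2 (1.99) and Atf4 (1.49), and 0 lower. Of the MYC list 11 of 17 rose, of the elongation factors 4 of 6, of the scaffold proteins 2 of 3 (Aimp2, 0.78, and Eef1e1, 0.61), and of tRNA processing genes 6 of 31, a share near the 18.3% of all tested genes that rose. The list of mitochondrial translation, tRNA and transcription genes had 1 of 24 higher and 1 lower. The part of proliferation in the synthetase results was not tested.

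**Figure D5:**
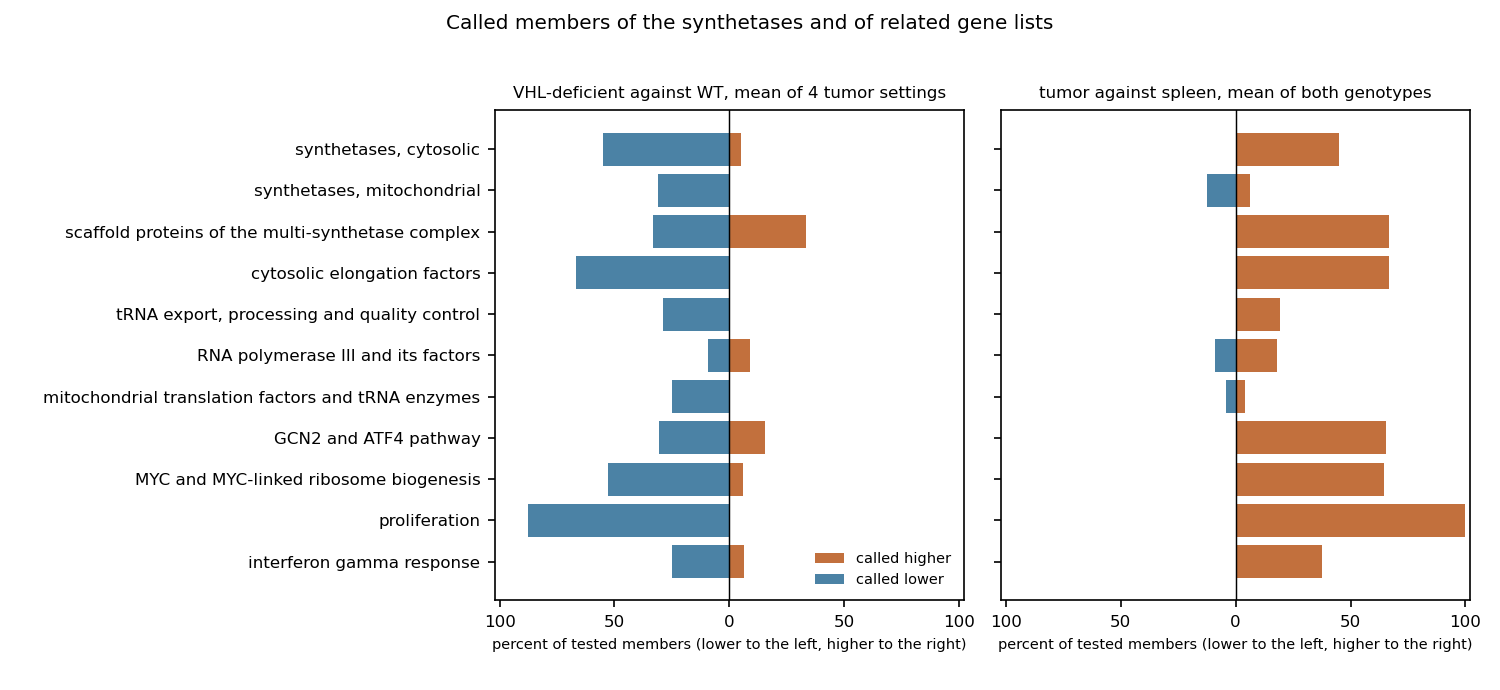
Percent of tested genes called higher (right of 0) and lower (left of 0) in the synthetases and in 9 related lists, for VHL-deficient against WT in the mean of 4 tumor settings and for tumor against spleen in the mean of both genotypes. The proliferation list has the longest bars, 14 of 16 lower and 16 of 16 higher.

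RefSeq promoter windows of 300 bases (250 before to 50 after the start, GRCm38.p6) were found for 27 of the 36 members. The ATF4 and C/EBP composite element TGATGNAA (TTNCATCA on the other strand) was in 5 of the 27 (18.5%), Aars, Gars, Iars, Tars and Yars, and in 3.97% of all 32851 windows. Of the 27 members, 13 are cytosolic, and the larger part of all cytosolic members fell in VHL-deficient tumor cells. All 5 with the element are cytosolic, and 4 of them (Aars, Gars, Tars and Yars) fell, while Iars did not pass the test. A link between the element in these 5 genes and the decrease was not tested. Windows of 30 bases around 1 match in each of these genes are shown, with the element in capitals, reading TTNCATCA where it lies on the reverse strand.
Aars, 10 from the start, chr8:111033840-111033869, plus strand: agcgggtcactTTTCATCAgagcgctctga
Gars, -30 from the start, chr6:55037960-55037989, plus strand: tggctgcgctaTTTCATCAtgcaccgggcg
Iars, 8 from the start, chr13:49682126-49682155, plus strand: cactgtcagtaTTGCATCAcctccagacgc
Tars, -15 from the start, chr15:11399655-11399684, minus strand: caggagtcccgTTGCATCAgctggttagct
Yars, 4 from the start, chr4:129189895-129189924, plus strand: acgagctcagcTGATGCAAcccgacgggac

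The E-box CACGTG was in 5 of 27 windows and 7.15% of all windows. The hypoxia response core ACGTG, which every CACGTG contains, was in 10 of 27 (37%) and 19.6% of all. The core GCGTG was in 20 of 27 (74.1%) and 32.4% of all. The ETS site CCGGAAG was in 9 of 27 (33.3%) and 8.86% of all. The interferon gamma activated site TTCNNNGAA was in 3 of 27 (11.1%) and 8.3% of all. Both strands were searched for each motif, G and C content was not matched, and a match is a description of letters only. Dars, the member that rose, held GCGTG, as did Gars and Mars1, which fell.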

How the data were processed

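RNA was sequenced from sorted CD8+ T cells in 22 libraries of 10 groups. Per the labels' protocols, cells were lysed in TCL buffer, RNA was bound on RNAClean XP beads and libraries came from the PrepX kit. STAR, featureCounts, DESeq and the build mm10 are named in the submitters' processing notes, without versions. The table the authors deposited holds a signal per gene and library, in 46297 rows; its header states 55 samples, and 22 columns were present. In the deposited signal, 1 was added to reads that had been divided by the size factor of their library: with 1 removed, 100% of values were whole multiples of 1 step per library (tolerance 0.01 reads, largest deviation 0.000282).

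The value 1 was removed, and 14327 genes reaching a scaled count of 10 in 2 or more libraries entered the test. Limma 3.58.1 (R 4.3.3) was fitted to log2(scaled count + 1) as 10 group means (22 libraries, leaving 12 residual degrees of freedom), with trended empirical Bayes, two-sided tests and Benjamini-Hochberg adjustment at 0.05, in 16 comparisons. Fold changes understate the change of low genes. P-values measure the spread between replicates, which the series describes as biological. The test was checked on simulated data. Library totals were 3375558 to 10211060 reads, and counting error is largest for mitochondrial members.

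The members, the related lists and the naming rule were chosen with earlier results of these data known. The rule names all 36 members, gives every library for those called in a genotype, tissue or interaction comparison, and names from each related list the anchors Atf4, Myc, Aimp1, Aimp2, Eef1e1, Xpot and Mki67 and up to 4 called genes with the smallest adjusted p. Of the genes this rule names, 1 is not reported here. Alternatives were other scalings, voom, library weights, a fit without trend, other filters, pseudocounts of 0.5 and 5, fits of the compared groups alone, a replicate block and leaving out each library. Gene positions are from GENCODE M21 and promoters from RefSeq. Replicate numbers were not treated as pairs. Tables and plots were made with matplotlib 3.10.9, pandas 2.3.3 and numpy 2.4.6 in Python 3.11.15.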

Additional observations from a re-analysis of the deposited data

Results flagged for a closer look

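In 4 of the 36 members, all VHL-deficient libraries lay on one side of the WT libraries in 1 setting and on the other side in another, in 5 of 252 pairs of settings looked at (7 pairs for each member). The difference between settings was not tested for the pairs taken this way. The share of such pairs over all tested genes is not given here, so their number is no result about the members. Hars2, the mitochondrial histidyl enzyme, had a log2 fold change of 0.63 in Trm and -0.30 in spleen. Lars2 had -0.62 on day 11 and 1.04 in spleen. Pars2, with as few as 3 reads in a library, had 0.98 in unsplit day 7 tumor, -2.00 in nonTrm and 0.43 in spleen. Yars2 had -0.36 in Trm and 0.75 in spleen.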

How the results depend on the processing

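No member called in the results above changed direction under any alternative. Leaving out 1 library at a time, the number of members called ran from 14 to 20 for genotype over the 4 tumor settings, 0 to 3 on day 11, 0 to 10 in Trm, 0 to 16 in nonTrm and 0 to 1 in spleen. For tumor against spleen it ran from 6 to 18 over both genotypes, 0 to 6 in VHL-deficient cells and 0 to 8 in WT cells. It ran from 0 to 13 for Trm against nonTrm in VHL-deficient cells and 0 to 5 for the interaction with subset. Where leaving out a library left 1 in its group, the lone library was taken to vary as the other groups did. Voom gave 9 for genotype over the tumor settings (reported: 17), 0 in Trm (5), 0 in nonTrm (3), and for tumor against spleen 3 over both genotypes (12), 0 in VHL-deficient cells (4) and 2 in WT cells (6). Scaling by totals gave 3 in Trm and, for tumor against spleen, 5, 0 and 3. TMM gave 2 on day 11, 9 in Trm and 14 for WT tumor against spleen. A fit of the compared groups alone gave 7 on day 11, 0 in Trm, 0 in nonTrm, and 8 and 1 for tumor against spleen in VHL-deficient and WT cells. Library weights gave 7 on day 11, 0 in nonTrm and 8 for VHL-deficient tumor against spleen. Without the trend the counts were 2 in Trm, 1 in nonTrm and 1 for VHL-deficient tumor against spleen, and without the filter 2, 0 and 0, with 3 for WT tumor against spleen. The cause of these differences was not tested. The share of all tested genes called under each alternative is not given here, so no such count is a result about the members. Tests on whole reads by quasi-likelihood and by a negative binomial Wald test, both planned, were not run.

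With the replicate block, 0 members were called in nonTrm, against 3 without it; it gave 16 for genotype over the tumor settings, 4 in Trm and 3, 4 and 12 for tumor against spleen in VHL-deficient cells, WT cells and both. Same-numbered day 11 libraries had deviations that correlated at 0.043, 0.105 and 0.104, 1 of them under 0.1, so the numbers were not taken as pairs. Groups of 2, where both numbers give the same value, had 0.236 in Trm, 0.271 in nonTrm, 0.118 in spleen and 0.0291 in unsplit tumor between genotypes. For Trm against nonTrm the correlations were -0.18 and -0.15, and crossing the numbers, an alternative chosen after seeing the data, called 0 in either genotype. Depth limits the mitochondrial members most.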
